A study of Mus musculus with 16 samples.

Results

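Hedgehog signalling was followed through 9 genes: the ligand Shh, the receptors and co-receptors Ptch1, Smo and Boc, the ligand-binding membrane protein Hhip, the cytoplasmic inhibitor Sufu, and the transcription factors Gli1, Gli2 and Gli3. They are 9 of 39179 genes counted per library, matched by gene name in every library, and all 9 passed the filter on low counts that left 18074 genes. The set was chosen by name and selected on measured values of the same libraries: Gli2 had a small p in the cortical tamoxifen comparison and Gli3 in the comparison of the tamoxifen effect between regions. Values of all 9 genes in the tamoxifen comparisons, and of Gli2 and Gli3 in every comparison, are therefore given as a description with no p. The hippocampus against cortex comparisons were tested for the other 7 genes. Their samples also enter the tamoxifen comparisons, so these p-values are not independent of the choice of genes.

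The RNA came from adult TERT-AD mice of strain B6.129S6.SvEvTac, a model for inducing the telomerase gene Tert in neurons with tamoxifen. The 4 groups were cortical neurons of mice given vehicle (cortical controls), cortical neurons of mice given tamoxifen, and the same 2 treatments for hippocampal neurons, with 4 libraries each. All groups carry the TERT-AD alleles. The sources used here do not name the promoter that drives the induction, an age beyond adult, the sex, the way neurons were isolated or the number of animals behind a library. Within a group, libraries 1 and 2 were close to each other and so were 3 and 4, and each such pair was added up as sample A or sample B. This left 2 samples per group with 83527470 to 108293362 counts in genes, and every p-value below measures only the spread between such samples.

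Levels are counts scaled to library size (CPM), here to the sum of all gene rows in a sample. Fitted log2 fold changes use TMM scaling, which assumes that most genes do not differ. Without TMM the median of all genes shifted to 0.39 in log2 for hippocampus against cortex in controls, 0.12 in the tamoxifen groups and 0.25 for tamoxifen in cortex, so a level and a fold change of the same gene can point in different directions. Tert itself stood at 0.473 and 1.11 CPM in the cortical controls and at 1.04 and 2.34 CPM in the cortical samples labelled tamoxifen. In hippocampus it stood at 1.47 and 3.89 CPM in controls and at 1.04 and 2.16 CPM in the samples labelled tamoxifen. The groups overlapped in both regions, and in all 4 groups the higher value was that of sample B. Markers of excitatory neurons summed to 5266 to 9552 CPM, and those of other cell types were present as well: the oligodendrocyte list summed to 24257 to 72885 CPM, the astrocyte list to 7188 to 12504 CPM and the microglial list to 712 to 2354 CPM. Cortical tamoxifen sample B stood apart. Its mitochondrial share of counts was 20.1 to 20.7%, while the rest of the cortical libraries had 29.7 to 32.1%, and its oligodendrocyte list was at 24257 CPM, and at 53088 CPM or more in the remaining cortical samples. Choroid plexus and ependymal genes summed to 5010 CPM in cortical tamoxifen sample A and to 11.3 to 937 CPM in the remaining cortical samples. Hippocampal tamoxifen sample A also stood apart. Its list of choroid plexus and ependymal genes summed to 54.6 CPM, where the remaining hippocampal samples had 7981 to 17034 CPM, and its astrocyte, oligodendrocyte precursor, neural stem cell and excitatory and inhibitory neuron lists were the highest of the hippocampal samples.

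In the Hedgehog pathway a secreted ligand binds Patched, which otherwise keeps Smoothened silent. Active Smoothened, in the primary cilium, frees the Gli factors from Sufu. Gli2 and Gli3 are processed to activators or repressors, while Gli1 is itself a target gene and an activator, and Ptch1 and Hhip are targets that dampen the signal. In the adult forebrain, neurons are a known source of Sonic hedgehog, and astrocytes and neural stem cells are known to express Gli factors.

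RefSeq promoter windows of build GRCm38.p6 were available for 6 of the 9 genes (Gli2, Gli3, Hhip, Ptch1, Smo and Sufu). The 250 bases upstream of the start site are shown for Gli2, the Gli factor with the largest fitted change in cortex and the one window with a Gli core match, and for Smo, the receptor with the largest difference between regions in controls. Capitals mark GGGTGGT, the reverse complement of ACCACCC, the core letters of the Gli consensus; it begins 205 bases upstream of the Gli2 start. The windows lie at chr1:119053620-119053869 on the minus strand for Gli2 and chr6:29735247-29735496 on the plus strand for Smo, and no annotated exon overlaps either.
Gli2: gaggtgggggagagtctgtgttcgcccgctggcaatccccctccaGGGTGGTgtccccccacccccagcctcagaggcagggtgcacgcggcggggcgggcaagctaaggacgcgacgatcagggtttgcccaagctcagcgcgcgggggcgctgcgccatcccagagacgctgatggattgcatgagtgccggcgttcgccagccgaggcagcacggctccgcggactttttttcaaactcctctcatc
Smo: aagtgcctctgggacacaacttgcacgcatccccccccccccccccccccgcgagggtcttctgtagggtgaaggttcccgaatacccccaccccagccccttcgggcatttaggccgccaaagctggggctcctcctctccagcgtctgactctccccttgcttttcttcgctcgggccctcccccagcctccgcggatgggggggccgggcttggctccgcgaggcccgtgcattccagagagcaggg
Searched on both strands, the core ACCACCC was found in 1 of the 6 windows and in 3.92% of 32851 windows of 250 bases. The full consensus GACCACCCA, which contains the core, was in 0 of 6 and in 0.225% of all windows. The windows shown had a GC content of 67.2% (Gli2) and 68.4% (Smo), with 22 and 15 CG pairs, against medians of 52.4% and 6. A match describes letters in this window and nothing about binding.

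**Figure D1:**
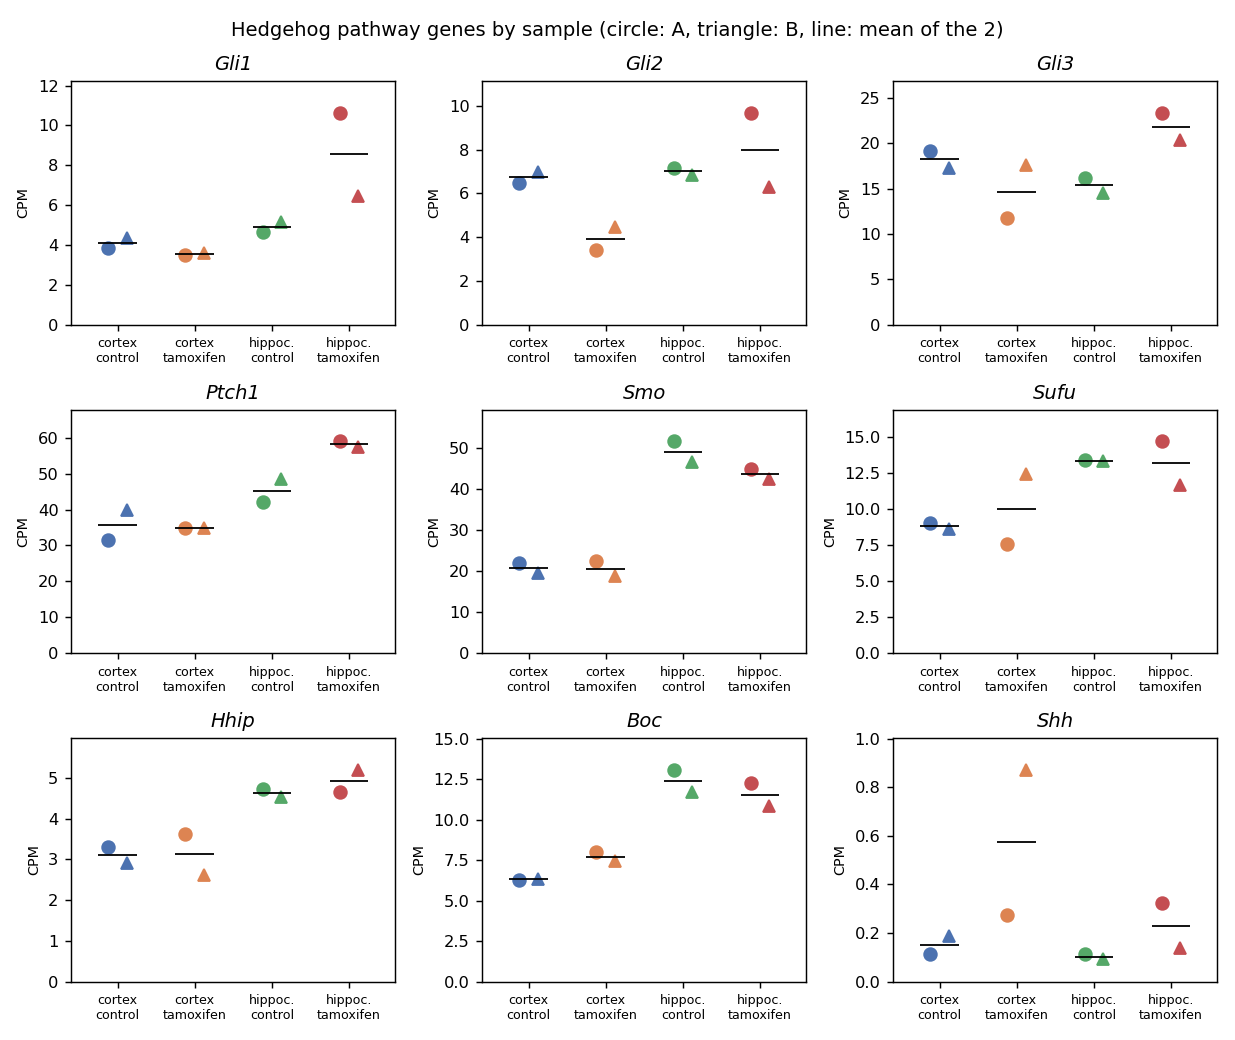
CPM of the sum of gene rows (y axis, from 0) for each of the 9 genes in the 4 groups; circles are sample A, triangles sample B, lines the mean of the 2. Gli2 is lowest in both cortical tamoxifen samples (3.41 and 4.46 CPM) and Gli1 is highest in hippocampal tamoxifen sample A (10.6 CPM). Gli1, Ptch1, Smo, Hhip and Boc are higher in every hippocampal sample than in every cortical one. On this scale 75.1% of all genes did not overlap between regions in controls.

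The ligand Shh (ENSMUSG00000002633, chromosome 5 from 28456815 to 28467101, minus strand, mm10 as are all positions here) was barely counted. It had 11 and 16 counts in the cortical controls, 23 and 87 in the cortical tamoxifen samples, 12 and 10 in the hippocampal controls and 34 and 15 in the hippocampal tamoxifen samples. These are 0.113 and 0.189 CPM, 0.275 and 0.872 CPM, 0.115 and 0.0924 CPM, and 0.323 and 0.139 CPM. In each region both tamoxifen samples were above both controls, and cortical tamoxifen sample B was the highest of all 8. The log2 fold change with tamoxifen was 1.64 (SE 0.63) in cortex and 1.17 (SE 0.64) in hippocampus. It was 0.91 in cortex without tamoxifen sample B and 0.49 in hippocampus without tamoxifen sample A. Between regions the log2 fold change was -0.92 (SE 0.66) in controls and -1.39 (SE 0.61) in the tamoxifen groups, with edgeR adjusted p of 0.404 and 0.245. The latter was -0.66 without cortical tamoxifen sample B.

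The samples with the most Shh were also those with the most inhibitory neuron marker RNA within their region. The list of 9 genes summed to 303 CPM in cortical tamoxifen sample B, with the remaining cortical samples at 124 to 141 CPM, and to 143 CPM in hippocampal tamoxifen sample A, with the remaining hippocampal samples at 93.0 to 105 CPM. None of the 9 was at 0 in any sample. The excitatory neuron list was highest in the same samples, at 9552 CPM in cortex, where the others had 5958 to 6712 CPM, and at 7510 CPM in hippocampus, where the others had 5266 to 6426 CPM. The layer 5 and hippocampal neuron lists were highest in these samples as well, and the list for striatum, septum and thalamus was in cortex only. The match was not limited to neuron lists. The oligodendrocyte precursor list was at 424 CPM in the cortical sample, where the others had 259 to 318 CPM. It was at 718 CPM in the hippocampal sample, where the others had 509 to 594 CPM. The microglial list was highest in the cortical sample only, and the astrocyte and neural stem cell lists in the hippocampal one only. The part of these cells in the Shh values was not tested. A gene on the opposite strand within Shh had up to 213 counts over all samples, and no source used here states the strand setting of the counting, so the Shh counts are uncertain.

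Patched, encoded by Ptch1 (ENSMUSG00000021466, chromosome 13 from 63511533 to 63565520, minus strand), was the most abundant of the 9 per kilobase of exon in 3 of the 4 groups. It stood at 31.4 and 39.8 CPM in the cortical controls, 34.9 and 34.9 CPM in the cortical tamoxifen samples, 42.0 and 48.4 CPM in the hippocampal controls and 59.0 and 57.3 CPM in the hippocampal tamoxifen samples. Both hippocampal tamoxifen samples were above the other 6. Its log2 fold change with tamoxifen was 0.39 (SE 0.20) in hippocampus and -0.20 (SE 0.20) in cortex, where it was -0.45 without tamoxifen sample A and 0.01 without tamoxifen sample B. Between regions it was -0.04 (SE 0.20, edgeR adjusted p = 0.915) in controls and 0.55 (SE 0.20, edgeR adjusted p = 0.183) in the tamoxifen groups. The sign in controls depended on the scaling: without TMM the value was 0.34.

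Smoothened, the signal transducer encoded by Smo (ENSMUSG00000001761, chromosome 6 from 29735694 to 29761365, plus strand), stood higher in hippocampus than in cortex under both treatments. It stood at 21.9 and 19.6 CPM in the cortical controls and 22.5 and 18.9 CPM in the cortical tamoxifen samples. In hippocampus it stood at 51.8 and 46.6 CPM in controls and 45.0 and 42.5 CPM in the tamoxifen samples. Every hippocampal sample was thus above every cortical one. Hippocampus against cortex gave a log2 fold change of 0.86 (SE 0.22) in controls and 0.88 (SE 0.22) in the tamoxifen groups, from samples that the 2 comparisons do not share. Neither passed the threshold of 0.05, with edgeR adjusted p of 0.063 and 0.089. Over the alternatives fitted to all 8 samples, the adjusted p in controls ran from 0.00536 with voom in limma to 0.0895 in edgeR with a replicate block. With 16 libraries in edgeR it was 0.000223, which is too small if neighbours are repeats of 1 sample. No p is given for fits that leave 1 sample in a group. The fold change in the tamoxifen groups was 0.56 without cortical tamoxifen sample B and 1.28 without sample A. With tamoxifen the Smo log2 fold change was -0.15 (SE 0.22) in cortex and -0.14 (SE 0.22) in hippocampus. The cortical value was -0.56 without tamoxifen sample A and 0.16 without tamoxifen sample B.

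The co-receptor Boc (ENSMUSG00000022687, chromosome 16 from 44485045 to 44558897, minus strand), which binds the ligand beside Patched, stood higher in hippocampus than in cortex in controls and in the tamoxifen groups. It stood at 6.30 and 6.37 CPM in the cortical controls, 7.99 and 7.43 CPM in the cortical tamoxifen samples, 13.1 and 11.7 CPM in the hippocampal controls and 12.3 and 10.8 CPM in the hippocampal tamoxifen samples. No hippocampal sample overlapped a cortical one. Between regions the log2 fold change was 0.58 (SE 0.19, edgeR adjusted p = 0.109) in controls and 0.39 (SE 0.19, edgeR adjusted p = 0.294) in the tamoxifen groups. The latter was 0.14 without cortical tamoxifen sample B and 0.70 without sample A. With tamoxifen it was 0.12 (SE 0.19) in cortex, -0.19 there without tamoxifen sample A and 0.38 without tamoxifen sample B, and -0.07 (SE 0.19) in hippocampus.

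Hhip (ENSMUSG00000064325, chromosome 8 from 79966115 to 80058006, minus strand), which sequesters the ligand, stood at 2.62 to 3.63 CPM in the 4 cortical samples and 4.53 to 5.20 CPM in the 4 hippocampal ones. Its log2 fold change between regions was 0.19 (SE 0.30) in controls and 0.45 (SE 0.30) in the tamoxifen groups, with edgeR adjusted p of 0.714 and 0.438. The latter fold change was 0.05 without cortical tamoxifen sample B and 0.99 without sample A, fits in which that group held a single sample. With tamoxifen it was -0.13 (SE 0.30) in cortex, from -0.67 without tamoxifen sample A to 0.27 without tamoxifen sample B, and 0.13 (SE 0.30) in hippocampus.

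Sufu (ENSMUSG00000025231, chromosome 19 from 46396896 to 46488804, plus strand), which holds Gli proteins in the cytoplasm, stood at 9.01 and 8.60 CPM in the cortical controls and 7.58 and 12.4 CPM in the cortical tamoxifen samples, the high value being sample B. In hippocampus it stood at 13.4 and 13.3 CPM in controls and 14.7 and 11.6 CPM in the tamoxifen samples. Its log2 fold change with tamoxifen was -0.04 (SE 0.15) in cortex and 0.01 (SE 0.15) in hippocampus, the smallest of the 9 in both. Between regions it was 0.22 (SE 0.15) in controls and 0.26 (SE 0.15) in the tamoxifen groups, with edgeR adjusted p of 0.379 and 0.348.

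**Figure D2:**
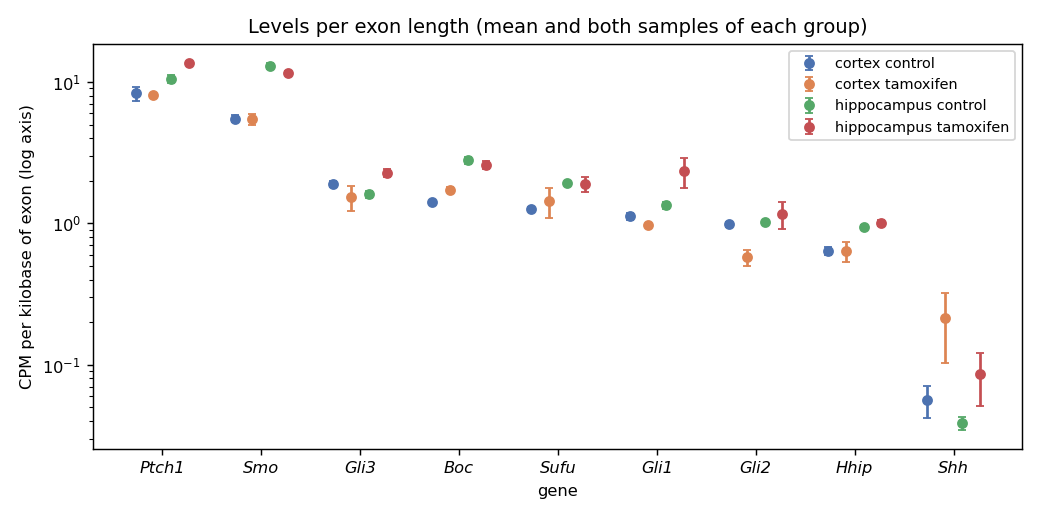
Levels per kilobase of exon (y axis, log scale) for the 9 genes in the order of the cortical controls; points are group means and bars run from the lower to the higher of the 2 samples. Ptch1 and Smo stand above the other 7 genes in all 4 groups and Shh stands below all others.

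Per kilobase of exon length, the scale for comparing genes, Ptch1 was at 8.31 CPM and Smo at 5.51 CPM in the cortical controls, followed by Gli3 at 1.91, Boc at 1.43, Sufu at 1.27, Gli1 at 1.12, Gli2 at 0.983, Hhip at 0.635 and Shh at 0.0562 CPM (means of 2 samples). No neighbours in that order overlapped. In the hippocampal controls Smo, at 13.1 CPM per kilobase, stood above Ptch1, at 10.5, and Gli3 ranked at 5, below Boc and Sufu. In the cortical tamoxifen samples Boc, Gli3 and Sufu overlapped as neighbours, as did Hhip and Gli2. In the hippocampal tamoxifen samples Boc, Gli1 and Gli3 overlapped as neighbours, as did Gli2 and Hhip. Gli1 ranked at 4 there, at 2.34 CPM per kilobase, and at 6 in the other 3 groups.

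The Gli factors had the largest differences between the 2 regions in their tamoxifen fold changes among the 9 genes. Gli2 (ENSMUSG00000048402, chromosome 1 from 118834132 to 119053619, minus strand), the main activator, stood at 6.48 and 7.0 CPM in the cortical controls and 3.41 and 4.46 CPM in the cortical tamoxifen samples. In hippocampus it stood at 7.15 and 6.86 CPM in controls and 9.68 and 6.31 CPM in the tamoxifen samples. The cortical groups did not overlap, and the hippocampal ones did. The log2 fold change with tamoxifen was -0.98 (SE 0.20) in cortex and 0.22 (SE 0.20) in hippocampus, the latter -0.08 without tamoxifen sample A.

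Gli3 (ENSMUSG00000021318, chromosome 13 from 15463235 to 15730026, plus strand), the main repressor, stood at 19.2 and 17.3 CPM in the cortical controls and 11.8 and 17.6 CPM in the cortical tamoxifen samples, which overlapped. On the TMM scale the same samples stood at 22.2 and 20.6 CPM against 14.3 and 15.4 CPM and did not overlap. In hippocampus Gli3 stood at 16.2 and 14.5 CPM in controls and 23.4 and 20.3 CPM in the tamoxifen samples, with no overlap on either scale. With tamoxifen the log2 fold change was -0.53 (SE 0.12) in cortex and 0.54 (SE 0.12) in hippocampus. Between regions it was -0.63 (SE 0.12) in controls and 0.43 (SE 0.12) in the tamoxifen groups.

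Gli1 (ENSMUSG00000025407, chromosome 10 from 127329889 to 127341589, minus strand), the target gene most used as a readout of the pathway, stood at 3.85 and 4.34 CPM in the cortical controls and 3.48 and 3.59 CPM in the cortical tamoxifen samples. In hippocampus it stood at 4.64 and 5.17 CPM in controls and 10.6 and 6.47 CPM in the tamoxifen samples. Both hippocampal tamoxifen samples were above all 6 others, and the higher was sample A, which stood apart in its choroid plexus, astrocyte and neuron lists. The log2 fold change with tamoxifen was 0.82 (SE 0.26) in hippocampus and 0.46 without tamoxifen sample A. In cortex it was -0.39 (SE 0.26). It was -0.19 there without tamoxifen sample B and -0.61 without tamoxifen sample A. Between regions it was -0.12 (SE 0.26, edgeR adjusted p = 0.795) in controls and 1.09 (SE 0.26, edgeR adjusted p = 0.0843) in the tamoxifen groups, the latter 0.73 without hippocampal tamoxifen sample A. The latter comparison shares its samples with tamoxifen values that were in view when Gli1 was chosen, so its p supports nothing. The value in controls was 0.26 without TMM. A gene on the opposite strand that overlaps Gli1, Arhgap9, had 2097 counts over all samples, so without a known strand setting the Gli1 counts are uncertain.

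**Figure D3:**
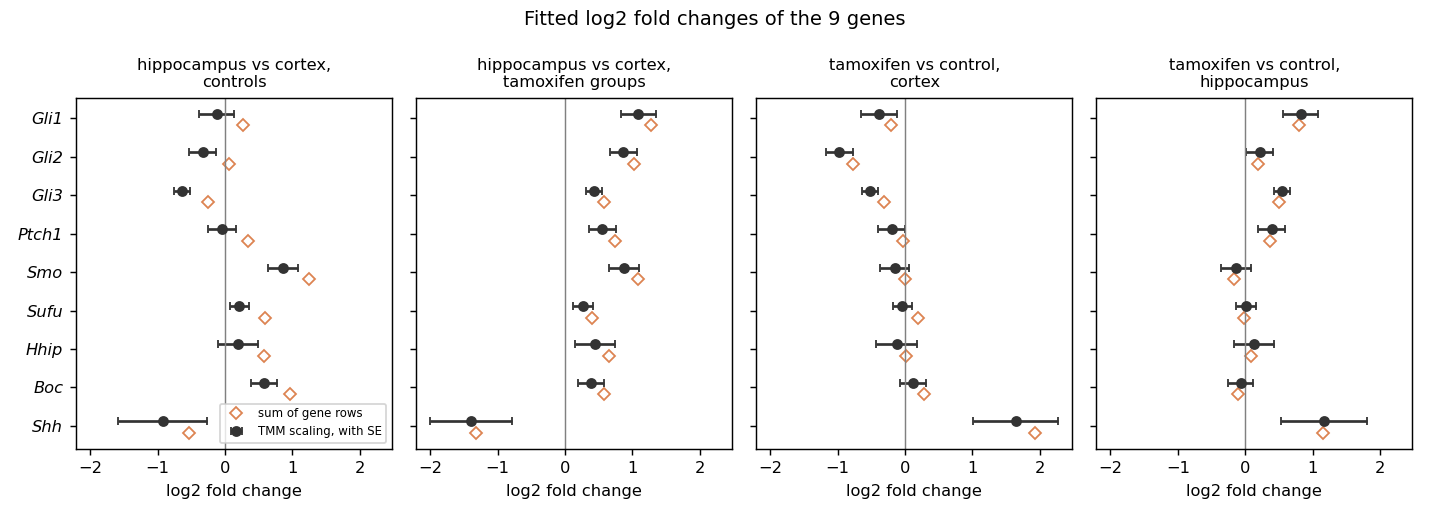
Fitted log2 fold changes (x axis) of the 9 genes in 4 comparisons; filled points use TMM scaling with bars of 1 SE, open diamonds use the sum of gene rows. Smo lies at 0.86 and 0.88 in the 2 comparisons of hippocampus with cortex, while Gli1, Gli2 and Gli3 lie below 0 for tamoxifen in cortex and above 0 for tamoxifen in hippocampus.

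As a difference of the tamoxifen log2 fold changes, hippocampus minus cortex, Gli1 was at 1.21 (SE 0.37), Gli2 at 1.19 (SE 0.28), Gli3 at 1.07 (SE 0.17) and Ptch1 at 0.59 (SE 0.29). The other 5 genes lay between -0.47 for Shh and 0.25 for Hhip. The median over the 9 genes was 0.25, beside -0.04 over all genes. By tamoxifen comparison the members' median was -0.15 in cortex, beside 0.04 over all genes, and 0.22 in hippocampus, beside -0.01. Without TMM the members' median was 0.08 for the difference, -0.0064 in cortex and 0.19 in hippocampus. Over all genes it was then -0.28, 0.25 and -0.04. The genes were chosen with tamoxifen values in view, so these medians are a description and support nothing.

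At an edgeR adjusted p under 0.05, 0 of the 7 genes tested between regions were called in controls, where 6.19% of all genes were called. Of the 7, 2 had an unadjusted p under 0.05 (27.6% of all genes did), and DESeq2 called 1, Smo (18.5% of genes with an adjusted p). With a sample left out the log2 fold change in controls ran from 0.80 to 0.92 for Smo and from 0.54 to 0.63 for Boc. In the tamoxifen groups 0 of the 7 were called between regions, where 1.12% of all genes were called. There 3 of the 7 had an unadjusted p under 0.05 (21.6% of all genes), and DESeq2 called 2, Gli1 and Smo (11.9%). The Gli1 call rests on samples whose tamoxifen values were in view, so it supports nothing. Fits with a sample left out leave 1 sample in its group, so their calls of these genes are not given. Without cortical tamoxifen sample A, the sample alone in its group is B, which stood apart. In the tamoxifen comparisons and their difference edgeR called 0.0% of all genes. Unadjusted p-values under 0.05 made up 4.97% of all genes in cortex, 3.61% in hippocampus and 5.43% for the difference, and DESeq2 called 0.0443%, 0.0443% and 0.0221%.

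Overlap between groups is given for all 9 genes as a description. On the TMM scale the groups did not overlap for 7 of the 9 genes between regions in controls, where 67.9% of all genes did not. They did not overlap for 8 of 9 between regions in the tamoxifen groups, where 46.5% of all genes did not. With tamoxifen they did not overlap for 4 of 9 in cortex (31.2% of all genes) and 6 of 9 in hippocampus (39.9%).

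On the sum of gene rows, Gli2 in hippocampus and Gli3 in cortex overlapped between treatments. The summed astrocyte list was lower in both cortical tamoxifen samples than in their controls and higher in both hippocampal ones. On the gene-sum scale its 12 genes stood at 9176 to 9580 CPM in the cortical controls, 7188 to 8842 CPM in the cortical tamoxifen samples, 9483 to 9767 CPM in the hippocampal controls and 10759 to 12504 CPM in the hippocampal tamoxifen samples. On the TMM scale 10 of the 12 were lower in both cortical tamoxifen samples than in both controls, and 8 of the 12 were higher in both hippocampal tamoxifen samples. On the gene-sum scale these were 6 and 5 of the 12. In hippocampus 8 of the 9 inhibitory neuron genes and 5 of the 7 neural stem cell genes were also higher in both tamoxifen samples on the TMM scale, 6 and 3 on the gene-sum scale. The mural cell list stood at 236 to 263 CPM in the cortical tamoxifen samples and at 300 to 308 CPM in their controls. In hippocampus that list stood at 449 to 457 CPM with tamoxifen and at 476 to 527 CPM in controls. No astrocyte gene was at 0 in any sample. The part of these cells in the Gli values was not tested. In such bulk samples fewer cells of a type and less RNA per cell cannot be told apart.

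**Figure D4:**
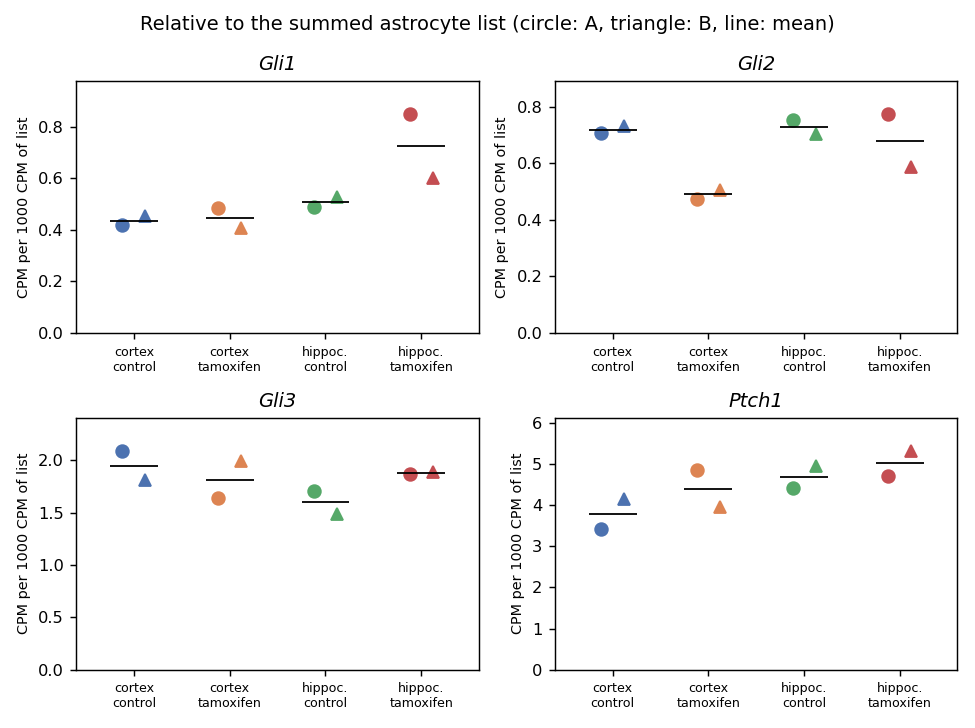
CPM of Gli1, Gli2, Gli3 and Ptch1 per 1000 CPM of the summed astrocyte list (y axis, from 0) in the 4 groups; circles are sample A, triangles sample B, lines the mean of the 2. Gli2 is lower in both cortical tamoxifen samples (0.475 and 0.504) than in the other 6, and Gli1 and Gli3 overlap between the cortical groups.

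Most of that list's sum was Slc1a2 and Aldoc, at 5615 and 1462 of 9176 CPM in cortical control sample A. A ratio to it is thus no measure per astrocyte. Per 1000 CPM of that list, Gli2 was at 0.707 and 0.730 in the cortical controls and 0.475 and 0.504 in the cortical tamoxifen samples, which did not overlap. Gli3 was at 2.09 and 1.81 against 1.64 and 1.99 in cortex, which overlapped, and at 1.71 and 1.49 against 1.87 and 1.89 in hippocampus, which did not. Gli1 in hippocampus was at 0.490 and 0.530 in controls and 0.850 and 0.602 in the tamoxifen samples, also without overlap. In cortex Gli1 was at 0.420 and 0.453 in controls and 0.485 and 0.406 in the tamoxifen samples, which overlapped. Gli2 in hippocampus overlapped too, at 0.755 and 0.703 in controls and 0.774 and 0.586 in the tamoxifen samples. The share of all genes without overlap on this ratio was not computed. Ptch1 in hippocampus was at 4.42 and 4.95 in controls and 4.72 and 5.32 in the tamoxifen samples, which overlapped.

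Of the other genes listed for the pathway, 52 of 54 were tested. Between regions in controls 1 was called higher and 4 lower in hippocampus, which is 5 of 52 where 6.19% of all genes were called. In the tamoxifen groups 1 was higher and 1 lower, which is 2 of 52 where 1.12% of all genes were called. Of the 52, 0 were called with tamoxifen in either region or for the difference, as over all genes. At an unadjusted p under 0.05 there were 3 with tamoxifen in cortex, 0 in hippocampus and 4 for the difference (4.97%, 3.61% and 5.43% of all genes), and DESeq2 called 0 in each. Their median log2 fold change was -0.01 between regions in controls and 0.06 with tamoxifen in cortex and -0.0018 with tamoxifen in hippocampus.

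Scube1, of a family of secreted proteins that help release the ligand, was the one called in both region comparisons. It stood at 7.42 and 8.25 CPM in the cortical controls, 7.84 and 17.9 CPM in the cortical tamoxifen samples, 3.72 and 4.41 CPM in the hippocampal controls and 4.46 and 4.29 CPM in the hippocampal tamoxifen samples. All 4 hippocampal samples were below all 4 cortical ones. Its log2 fold change was -1.33 (SE 0.25, edgeR adjusted p = 0.0372) in controls and -1.65 (SE 0.25, edgeR adjusted p = 0.0438) in the tamoxifen groups.

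The other genes called in one region comparison are named after their values were seen. In controls, Gpr161, a ciliary receptor that restrains the pathway through protein kinase A, was higher in hippocampus, by 1.39 in log2 (SE 0.28, edgeR adjusted p = 0.0392), at 4.98 and 5.95 CPM against 1.61 and 1.60 CPM in cortex. Genes lower in hippocampal controls were the kinase gene Adrbk1 (also called Grk2), the arrestin gene Arrb1 and the kinase gene Gsk3a, whose product helps process Gli proteins. Their log2 fold changes were -0.79, -0.91 and -0.64. All 3 kept this sign without TMM, at -0.40, -0.52 and -0.25. In the tamoxifen groups the co-receptor gene Gas1 was higher in hippocampus by 0.97 (SE 0.16, edgeR adjusted p = 0.0494), at 19.6 and 14.1 CPM against 6.11 and 9.53 CPM. Of these 7 calls, 0 were kept when any 1 of the 4 control samples was left out (edgeR adjusted p from 0.0794 to 0.289), 0 to 2 were kept without 1 hippocampal tamoxifen sample, and 1, that of Gpr161, was kept without scaling.

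Of the pathway's target genes other than members, 12 of 12 were tested and edgeR called 0 in any of the 5 comparisons. Between regions 4 of the 12 had an unadjusted p under 0.05 in controls (27.6% of all genes did) and DESeq2 called 3 (18.5%). In the tamoxifen groups 4 had such a p (21.6%) and DESeq2 called 4 (11.9%). With tamoxifen 1 had such a p in cortex, 0 in hippocampus and 1 for the difference, and DESeq2 called 0. Their median log2 fold change with tamoxifen was -0.21 in cortex and 0.07 in hippocampus. The related Glis and Zic zinc finger genes had a median log2 fold change of 0.55 between regions in controls, with 7 of 8 above 0. EdgeR called 0 of the 8, 3 had an unadjusted p under 0.05 (27.6% of all genes) and DESeq2 called 3 (18.5%). Another secreted family member, Scube3, stood at 1.06 CPM in hippocampal tamoxifen sample A and at 14.4 to 23.4 CPM in the other 3 hippocampal samples. The choroid plexus gene Ttr stood at 37.8 CPM in that sample and at 7345 to 15953 CPM in the others, and its part in the Scube3 values was not tested.

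The genes whose profiles over the 8 samples were most like those of a member were sought among 12698 genes by the root mean square difference of centred log2(CPM + 0.5). For Gli1 they were Papss2 (0.143), Slc4a4 (0.151) and Slc6a11 (0.158), and Ptch1 (0.225) ranked at 38. For Gli2 they were AW047730 (0.133), Elovl2 (0.137) and Gabrg1 (0.142). For Gli3 they were Aqp9 (0.0941), Slc13a5 (0.0989) and Ucp3 (0.113). For Ptch1 they were Lpp (0.0908), Aard (0.106) and Crtc3 (0.107), while Hhip ranked at 488 and Gli1 at 933. The 8 samples share libraries and scaling across these genes, so this is a description.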

How the data were processed

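Per the submitters' processing notes, alignment used STAR, counting used HTSeq and the build was mm10; their versions, the annotation release and the strand setting are not given in the sources. The deposited files give a whole-number count per gene and, per the file headers, the authors' RPKM value, that is, the count per exon length and library total, which entered no test. Reads aligned to several places (27.5 to 35.4%), outside genes (3.64 to 7.93%) or ambiguous (1.38 to 1.86%) stayed out of library sizes. Libraries held 33236178 to 57195203 counts in genes.

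For genes with 20 to 200 counts, the variance between neighbouring libraries was 3.53 to 3.98 times Poisson in 8 pairs, and 6.21 to 19.1 times Poisson in the 16 other pairs. Neighbours were therefore summed, although they differed by more than sampling noise and no label ties libraries to animals. The 8 samples were fitted with a mean per group in edgeR 4.0.16 (R 4.3.3), with filterByExpr, TMM and the robust quasi-likelihood test, with Benjamini-Hochberg adjustment over 18074 genes. The SE is the fitted log2 value over the root of its F statistic. The scripts were tested on simulated data.

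Alternatives used RLE scaling, no scaling, no filter, DESeq2 1.42.0, voom in limma 3.58.1, the 16 libraries, replicate blocks and each sample left out. The 9 genes, the pathway and marker lists and the rules were chosen with earlier results of these data known. All 9 are named; of the lists, genes called in both region comparisons in the same direction; and the 3 genes most like Gli1, Gli2, Gli3 and Ptch1.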

Additional observations from a re-analysis of the deposited data

Results flagged for a closer look

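Every tamoxifen sample of Gli1 and Gli3 lay on opposite sides of its controls in the 2 regions on the TMM scale: below both controls in cortex and above both in hippocampus. The difference of the log2 fold changes was 1.21 for Gli1 and 1.07 for Gli3. It is a description with no p, since these values were in view when the genes were chosen, and the counts of calls that include it, given with the processing alternatives, support nothing. On the sum of gene rows Gli3 overlapped between the cortical groups. Relative to the summed astrocyte list, Gli1 and Gli3 both did.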

How the results depend on the processing

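With 2 samples per group the calls moved with the model. Of the 7 genes tested between regions, 0 to 2 were called in controls and 0 to 5 in the tamoxifen groups over the alternatives. The counts over all 9 genes that follow include the values that chose them and only describe how calls move with the processing. In controls between regions 1 of the 9 genes was called. The count was 2 without scaling, without the filter and with DESeq2, and 3 with voom and with 16 libraries. In the tamoxifen groups between regions it was 0, against 4 with DESeq2, 7 with 16 libraries and 0 to 6 with a sample left out (6 without cortical tamoxifen sample A). For tamoxifen in cortex it was 0, against 2 with 16 libraries, where 208 of 16746 genes were called higher and 354 lower. Counts of the 9 genes with a sample left out are not given, since 1 sample then remains in its group. For tamoxifen in hippocampus it was 0, against 2 with 16 libraries (209 of all genes higher, 109 lower). For the difference it was 0, against 1 with DESeq2 (0.0221% of all genes) and 3 with 16 libraries (457 of all genes higher, 410 lower). P-values over 16 libraries are too small if neighbours are repeats of 1 sample.

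Sample letters do not establish pairs: the correlation of their deviations was 0.283 between the cortical groups and -0.24 between the hippocampal ones. Over all pairs of groups it ran from -0.405 to 0.283. With the letter as a replicate block 0 of the 9 genes were called between regions in controls, and all genes called fell from 1118 to 72 there and from 202 to 0 in the tamoxifen groups. A crossed replicate block, added after seeing the data, called 2 of the 9 and 2036 genes in controls and 121 genes in the tamoxifen groups. Of the 7 calls of other pathway genes, 0 passed with the replicate block.

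Between regions in controls, the log2 fold change of Gli1 was 0.26 and that of Ptch1 0.34 without scaling, the reverse of the TMM sign, and that of Ptch1 ran from -0.22 to 0.16 with a sample left out. Over all genes, the 1118 calls there (489 higher, 629 lower) became 2064 without scaling (1910 higher, 154 lower), 3207 with DESeq2, 4812 with voom, 6982 with 16 libraries and 0 to 3915 with a sample left out. The 202 calls in the tamoxifen groups became 26 without scaling, 536 without the filter, 1946 with DESeq2, 0 with voom, 5510 with 16 libraries and 0 to 4092 with a sample left out. The 0 calls for tamoxifen became 562 in cortex and 318 in hippocampus with 16 libraries, 1 in cortex without the filter, and 0 to 2014 in cortex with a sample left out. For the difference 16 libraries gave 867. The cause of these changes was not tested. Shh, at 10 to 87 counts per sample, is limited by depth.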
